A study of Danio rerio with 9 samples.

Results

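The transcripts described here are those whose array signal was higher in zebrafish (Danio rerio) embryos at the tailbud stage than at both 90% epiboly and 75% epiboly, the last steps of gastrulation. They were chosen by their values on those 3 arrays. For each oligonucleotide probe the ratio was log2 of Cy5 over Cy3, each channel taken as the spot mean minus the mean local background, less the median of its array. A member had a Cy5 spot median above the 95th percentile of blanks (spots named Blank) on the tailbud array, and a tailbud ratio at least 1 above the ratio of each of the other 2 arrays, which is 2-fold. The rule took 91 of 16176 probe IDs, which is 0.57% of the 15976 IDs with a ratio on all 3 arrays and 0.807% of the 11273 IDs above blanks at tailbud. Each member was printed as 1 spot.

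The study followed wild-type embryos of outbred stock, raised at 28.5 °C without injection, through 9 stages. The first was cleavage (64-cell), followed by the blastula stages high, sphere and 30% epiboly. Gastrulation was sampled at 50% epiboly and shield, then at 75% epiboly and 90% epiboly, and tailbud came last. At each stage 30 to 50 embryos of 1 clutch were pooled, and their amplified RNA was labelled with Cy5. Every array set this RNA against the same Cy3-labelled reference, an equal mix of the total RNA of the 9 stages. Each stage was measured on 1 array, so no difference between any 2 stages has a replicate check, and a feature of the clutch cannot be told apart from a feature of the stage.

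During epiboly the blastoderm spreads until it has enclosed the yolk cell. At the tailbud stage, just after, gastrulation movements are closing, the notochord, paraxial mesoderm and neural plate are laid out along the axis, and the first somites are about to form. Genes first transcribed in these tissues, in the hatching gland or at the border of the neural plate are among those known to gain transcript in this window. In RNA from whole embryos, a larger number of cells with a transcript and more transcript per cell cannot be told apart.

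The oligonucleotide IDs of the files are not paired with gene names, and none of the 91 members carried a sequence accession. Which genes the members represent, and whether markers of somites, notochord or neural plate are among them, could not be checked, and no probe sequence is printed. The members are therefore described by their signal.

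Because the tailbud, 90% epiboly and 75% epiboly arrays chose the members, their values there are a description without a test. The tailbud ratio exceeded that of 90% epiboly by a median of 1.31 on the log2 scale (2.47-fold), with a range from 1.00 to 4.63. It exceeded that of 75% epiboly by a median of 1.72 (3.3-fold), with a range from 1.03 to 4.34. The smaller of both differences, which decided membership, had a median of 1.28 and quartiles of 1.11 and 1.49. It reached 1.5 for 22 members and 2 for 7. Most members thus lay close to the limit of 1: the 4 nearest inside had 1.003, 1.004, 1.013 and 1.017, and the 4 nearest outside had 0.988, 0.990, 0.993 and 0.995. For 99 other IDs above blanks at tailbud that were printed more than once, in 226 spots, the difference between tailbud and 90% epiboly had a pooled SD between spots of 0.41, larger than the distance of most members from the limit.

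**Figure D1:**
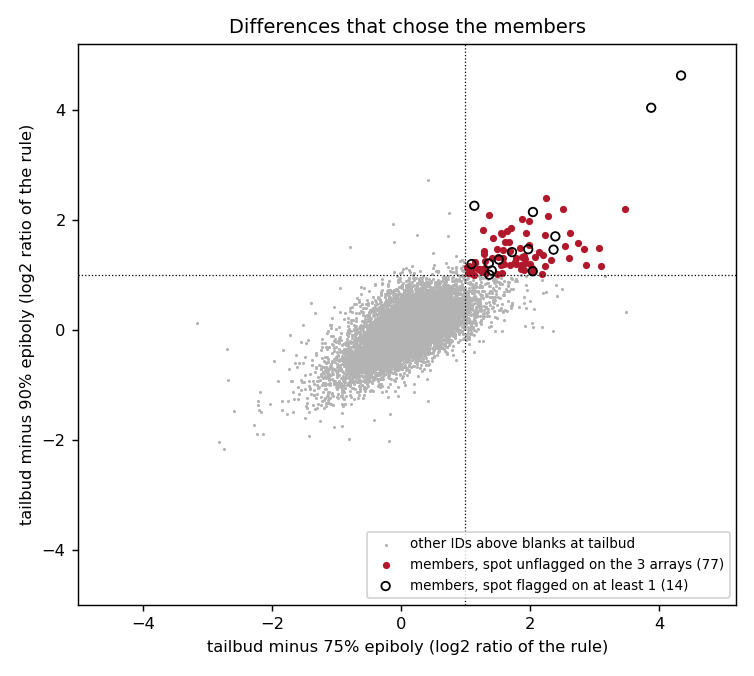
Difference of the tailbud ratio from 75% epiboly (horizontal axis, log2) and from 90% epiboly (vertical axis, log2), 1 point per probe ID above blanks at tailbud, with dotted lines at the limit of 1. The 77 members with an unflagged spot on the 3 arrays are filled red and the 14 with a flagged spot are open circles, and the 2 points beyond 3.5 on both axes are flagged.

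The same 2-fold limit met fewer probes in other patterns over these 3 arrays and about as many in the mirror image. Signal above blanks was asked for on the arrays of higher ratio. Among IDs above blanks at 90% epiboly, 16 were at least 2-fold higher there than at both neighbouring stages. Among IDs above blanks at 75% epiboly, 56 were that much higher than at both later stages. For 93 IDs above blanks at 75% and 90% epiboly the tailbud ratio lay at least 1 below both. The 93 are close in number to the 91 members, but the requirements differ. Members had to exceed blanks on the tailbud array only, and 34 of them did so at both 75% and 90% epiboly.

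After correction by normexp and loess normalization within each array, all 91 members were still higher at tailbud than at both stages, and for 60 of them the smaller difference was still at least 1. Its median was then 1.1, with a range from 0.22 to 4.04. In the Cy5 channel alone the tailbud value exceeded both stages for 90 members, the median was 1.02, and 47 reached 1. The pool channel, which held the same RNA on every array, differed between tailbud and 90% epiboly by a median of -0.07 among the members and 0.01 among all IDs. For 55 of the 91 members the pool signal was no higher at tailbud than at 90% epiboly, as for 7868 of all 16176 IDs. A lower pool signal at tailbud adds to the ratio difference. These arrays chose the members, so nothing is read from the count.

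The course over all 9 stages is given here in the loess ratio of stage over pool. From 64-cell to shield the median of the 91 members was, in stage order, -0.82, -0.72, -0.75, -0.67, -0.48 and -0.47. It was -0.24 at 75% epiboly and 0.04 at 90% epiboly, and tailbud had 1.21. After loess the median over all IDs lay between -0.02 and 0.01 on every array. The members' median thus lay below that of all IDs on the first 7 arrays, near it at 90% epiboly and above it at tailbud. The rule shaped the values on the last 3 arrays, and the pool held tailbud RNA too. The other 11182 IDs above blanks at tailbud had medians between -0.11 and 0.03 on every array. At 64-cell 82 members lay below the median of their array, at shield 77, at 90% epiboly 44 and at tailbud 1. For 87 members tailbud was the highest of the 9 stages, of which the rule had already set it above 75% and 90% epiboly. The share among the other IDs was not taken, so nothing is read from this count. Of the other 4 members, 3 were highest at 64-cell and 1 at high.

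**Figure D2:**
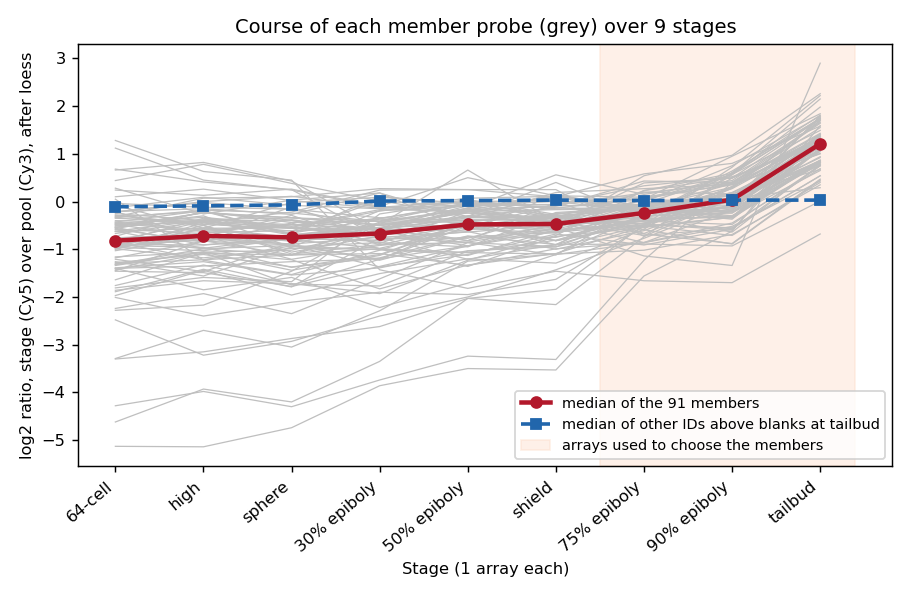
Log2 ratio of stage over pool after loess (vertical axis) at the 9 stages (horizontal axis, 1 array each), with 1 grey line per member, the members' median in red and the median of the other 11182 IDs above blanks at tailbud in blue. The shaded arrays chose the members; the red median lies between -0.82 and -0.47 from 64-cell to shield and reaches 1.21 at tailbud.

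Most members had modest signals even at tailbud. Their Cy5 spot median at tailbud had a median of 1002 scanner units and quartiles of 745 and 2128, against a blank level of 402, and the other IDs above blanks had a median of 1241. Ranked among all IDs by the normalized Cy5 channel, the median member lay at the 20.8th percentile at 64-cell, at the 20.5th at 50% epiboly and at the 27.8th at 75% epiboly. It then lay at the 39.0th percentile at 90% epiboly and at the 61.9th at tailbud. In the pool channel the median member lay between the 35.2nd and the 39.5th percentile on every array.

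The 6 arrays before 75% epiboly did not enter the rule, and the number of members with a Cy5 spot median above the blank level was low on each of them. At 64-cell 28 members (30.8%) were above blanks, against 63.7% of all 16176 IDs. There were 18 at high (19.8%, against 56.3%), and sphere had 17 (18.7%, against 56.8%). The 30% epiboly array had 15 (16.5%, against 53.3%). At 50% epiboly 19 members (20.9%, against 56.7%) and at shield 9 (9.89%, against 40.4%) exceeded the blanks. On arrays of the rule the number was 38 at 75% epiboly (41.8%, against 67.3%) and 46 at 90% epiboly (50.5%, against 63.0%), from which nothing is read. The comparison with all IDs is uneven because members were required to be above blanks at tailbud. Among the other 11182 IDs that met this requirement, between 58.0% (shield) and 84.1% (64-cell) were above blanks on those 6 arrays. The members' share was lower than theirs at each stage. These IDs were not matched to the members for brightness or for low ratios at 75% and 90% epiboly. Nothing is read from the lower share. The counts above blanks rest on the threshold. When a signal was counted if it exceeded the local background by 2 background SD, between 87 and 91 members passed at each stage. Blank spots themselves exceed that background. The share of all IDs passing this threshold was not taken, so nothing is read from the counts at 2 background SD.

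**Figure D3:**
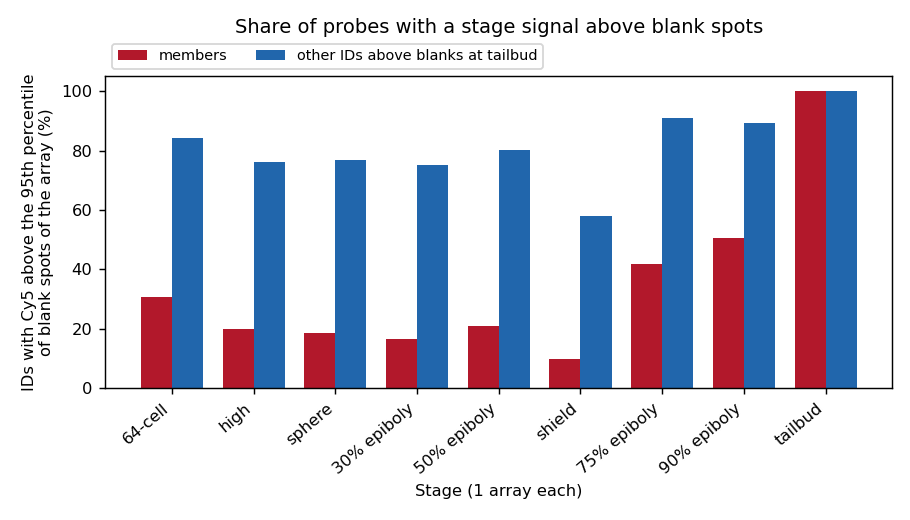
Percentage of IDs (vertical axis) with a Cy5 spot median above the 95th percentile of the array's blank spots at each stage (horizontal axis), for the 91 members in red and the other 11182 IDs above blanks at tailbud in blue. Members lie between 9.89% and 30.8% on the first 6 arrays, and both groups are at 100% at tailbud by the rule.

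Members fell into groups by when their signal first exceeded the blanks. For 58 members (63.7%) it did so on none of the 6 earlier arrays, which held for 8.81% of the other IDs above blanks at tailbud. Of these 58, 34 exceeded blanks at tailbud only, 10 at 90% epiboly and tailbud, 11 at 75% epiboly, 90% epiboly and tailbud, and 3 at 75% epiboly and tailbud. Another 28 members exceeded blanks at some but not all of the 6 earlier stages. The remaining 5 did so at all 9 stages, as did 51.9% of the other IDs. The other IDs were not matched for brightness, so nothing is read from the differences in share. The blank level itself differed between arrays, at 624 scanner units at 75% epiboly, 531 at 90% epiboly and 402 at tailbud, so that a spot of equal brightness passed more easily at tailbud. By their tailbud brightness 82 members would also have passed the level of 90% epiboly and 76 that of 75% epiboly.

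The signal was not above blanks at 90% epiboly for 45 members and at 75% epiboly for 53, so the lower end of their difference is poorly measured. No lower bound on their fold is given, because 9 members at tailbud were not brighter than the blank level of 90% epiboly and 15 not brighter than that of 75% epiboly.

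The members also differed in the step from 75% to 90% epiboly, on 2 arrays of the rule. The ratio of the rule was at least 1 higher at 90% than at 75% epiboly for 11 members, 0.5 to 1 higher for 23, within 0.5 for 54, and at least 0.5 lower for 3. The median over all 91 was 0.28. The 11 members at least 1 higher at 90% epiboly had a median loess ratio of -2.48 at 64-cell, -2.87 at sphere and -1.29 at shield. On the 3 arrays of the rule it was -0.55, 0.56 and 1.74 in stage order. None of them had a flagged spot on the last 3 arrays, and 10 of the 11 passed under all 3 scalings described below. The 54 members within 0.5 had a flatter early course, with a median of -0.54 at 64-cell and -0.35 at shield, followed by -0.20, -0.14 and 0.97. Of these 54, 9 had a flagged spot and 21 passed under all 3 scalings. At 75% epiboly 21 of the 54 were above blanks and at 90% epiboly 19, against 9 and 11 of the 11. Their Cy5 spot medians at tailbud had a median of 860, against 10122. For probes under the blank level a small step does not show a later start. At 64-cell the Cy5 spot medians had a median of 398 among the 54 and 434 among the 11. Both values were under the blank level of 596, and the groups were not matched for brightness. Nothing is therefore read from the flatter early course.

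Only 8 members reached a Cy5 spot median of 10000 scanner units at tailbud, a level chosen after their values were seen. All 8 were above blanks at 75% and 90% epiboly, none had a flagged spot on the last 3 arrays, and 7 passed under all 3 scalings. Their median loess ratio, from 64-cell to tailbud in stage order, was -3.29, -3.18, -2.99, -2.51, -2.01, -1.74, -0.63, 0.18 and 1.62. The brightest had Cy5 spot medians of 1191, 566.5, 556, 748, 410 and 402 from 64-cell to shield, then 5044, 21643 and, at tailbud, 41814. Another had 216, 176, 163, 252.5, 360 and 251 on the first 6 arrays, all under the blank level, then 1571.5, 6303 and 13816. The first was above blanks at 5 of the 6 earlier stages and the second at none, and both were brighter at each of the 3 later stages. A different course was seen in the bright member that did not pass under all 3 scalings. It was above blanks at all 9 stages, with 4221, 1776, 3290.5, 6844, 4110.5 and 3496 from 64-cell to shield, then 9257, 12490 and 17916. Its loess ratio rose from -2.28 at 64-cell to -0.45 at 30% epiboly, stayed between -0.48 and -0.14 through 90% epiboly, and was 0.75 at tailbud. Spot medians compare poorly across arrays, since the median over all IDs was 325 at shield, 980 at 75% epiboly and 747 at tailbud.

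The question asked of the 6 earlier arrays was whether the members already changed from 64-cell to shield. A slope of the loess ratio on stage order was fitted to each of 16105 probes (limma, 4 residual degrees of freedom, Benjamini-Hochberg adjustment over all tested probes, threshold 0.05). All 91 members were tested. With stage order 22 members rose (24.2%, against 19.5% of all tested probes) and 5 fell (5.49%, against 15.1%). The members' share of rising probes was thus near the background, and their share of falling probes was lower. Of the 91, 58 were above blanks on none of these arrays, where a fall is poorly measured. The background was not matched for brightness, so nothing is read from the lower share. With a robust prior and an intensity trend the share of rising members was below the background, at 12.1% against 19.6%. Over all 91 members the median fitted change from 64-cell to shield was 0.38, against 0.06 over all tested probes. The fitted change was above 0 for 69 of the 91 and for 53.7% of all tested probes. In Cy5 alone the median was 0.18 among the members and 0.08 over all tested probes. These comparisons were not matched for brightness either, so nothing is read from the differences.

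The 22 rising members had fitted changes from 0.60 to 2.92, and 15 reached 2-fold (16.5% of the members, against 14.3% of all tested probes). In stage order their median loess ratio was -1.43, -1.45 and -1.19 on the first 3 arrays, then -0.66, -0.37 and -0.37. It continued with -0.32 at 75% epiboly, 0.1 at 90% epiboly and 1.39 at tailbud. Their median climbed between high and 50% epiboly, was nearly level through 75% epiboly and climbed again to tailbud. The call chose these 22 for a rise over the 6 earlier arrays, and the rule chose them for the last climb. Nothing is therefore read from either climb. Signals were weak on the 6 earlier arrays, as 10 of the 22 were above blanks at none of these stages and 7 were above them at shield. The 64 members without a call had a median of -0.60 at 64-cell and -0.47 at shield, with 0.02 at 90% epiboly and 1.12 at tailbud. Of the 8 bright members 7 were among the 22, and so were 6 of the 11 that rose by at least 1 from 75% to 90% epiboly. Over all tested probes 19.5% were called rising. Shares among probes of like brightness were not compared.

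**Figure D4:**
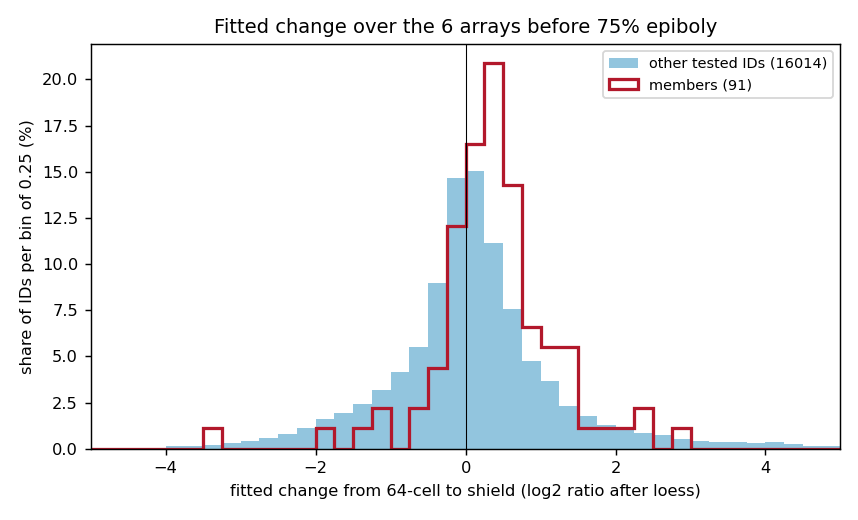
Fitted change of the loess ratio from 64-cell to shield (horizontal axis, log2) over the 6 arrays that did not choose the members, as the percentage of IDs per bin of 0.25 (vertical axis), for the 91 members (red outline) and the other 16014 tested IDs (blue). The members' median is 0.38, and 5 members called falling lie between -3.27 and -1.13; the axis ends at -5 and 5.

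Setting the mean of 30% epiboly, 50% epiboly and shield against that of 64-cell, high and sphere gave a similar picture. In this limma comparison 23 members were higher on the later 3 arrays (25.3%, against 24.2% of all tested probes) and 5 were lower (5.49%, against 19.2%). The later arrays are different stages and not replicates of one group. The weak early signals limit the count of lower members in the same way. Of the 22 members rising with stage order 18 were also called higher here, and all 5 falling members were called lower. Without the shield array 14 members were called higher (15.4%, against 19.4%), and with the robust prior 14 (15.4%, against 24.5%).

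How many members rose before 75% epiboly depended on the scaling. The authors' deposited value table, which is not centred, gave 6 rising (6.59%, against 6.04% of all) and 7 falling members (7.69%, against 21.6%) by stage order, where the median fitted change was -0.27 among the members and -0.60 over all probes. With the medians of that table subtracted 15 members rose (16.5%, against 16% of all) and 5 fell (5.49%, against 18%). The median fitted changes were then 0.38 among the members and 0.05 over all probes. Without the 64-cell array 10 members were called rising (11%, against 9.84% of all tested probes) and without shield 11 (12.1%, against 14%). Without high there were 13 (14.3%, against 11.9%) and without 50% epiboly 13 (14.3%, against 12.6%). Fewer probes were thus called over the whole array as well. Falling members numbered 3 without shield (3.3%, against 10.5%).

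Between consecutive earlier stages few members differed 2-fold, and no test is possible between single arrays. From sphere to 30% epiboly, soon after the embryo's own genome becomes active, 3 members were at least 2-fold higher (3.3%, against 7.42% of all IDs) and 3 at least 2-fold lower (against 6.50%). From 30% to 50% epiboly 3 members were higher (against 0.643%) and 0 lower (against 0.81%). From 64-cell to high 0 were higher (against 0.377%) and 1 was lower (against 0.42%). From high to sphere there were 0 in either direction (against 1.45% and 0.668%). From 50% epiboly to shield 0 were higher (against 0.155%) and 1 was lower (against 0.173%). Some of these counts rest on flagged spots. Of the 3 higher from 30% to 50% epiboly, 1 was flagged at 50% epiboly, and it was also the 1 lower at shield. The 1 lower from 64-cell to high was flagged on both arrays. Of the 3 lower from sphere to 30% epiboly, 1 was flagged at 30% epiboly.

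The 5 members called falling had fitted changes of -3.27, -1.96, -1.40, -1.19 and -1.13. Their median loess ratio went from 0.68 at 64-cell to -0.54 at shield, was -0.93 at 90% epiboly and 0.29 at tailbud. None was above blanks at 75% or 90% epiboly, and 3 of the 5 had a flagged spot on the last 3 arrays. The other 2 had unflagged spots there and were above blanks at 64-cell, high and sphere and not again until tailbud. The first of these had Cy5 spot medians of 5634, 1808, 1536.5, 389, 203, 227, 399, 410 and 814 in stage order. The second had 1802, 712.5, 653.5, 367.5, 206, 216, 385, 400.5 and 661. Both were brightest at 64-cell, and their tailbud value was well under it. Neither passed under all 3 scalings, with smaller differences after loess of 0.98 and 0.90.

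Of the 4 members named by ID, CGENXEB_456007410_0 and CGENXEB_456000396_0 had the largest smaller difference among members with unflagged spots and a pool signal above blanks on the last 3 arrays. The Cy5 spot median of CGENXEB_456007410_0 was 263, 184, 185, 212, 199 and 164 from 64-cell to shield in stage order. Later it was 541 at 75% epiboly, 523 at 90% epiboly and 2022 in tailbud embryos, where the pool signal was 749. Tailbud alone exceeded the blank level. The ratio of the rule was 2.20 higher at tailbud than at 90% epiboly and 2.51 higher than at 75% epiboly. Its signal at 90% epiboly lay just under the blank level of 531, so this difference is poorly measured at its lower end. Over the 6 earlier arrays its loess ratio rose by a fitted 0.73 ± 0.19 (SE, 6 arrays, limma, adjusted p = 0.024, the lowest over the alternatives). Most alternatives gave a weaker result, with a fitted 0.18 in the authors' value table as deposited and 0.4 in Cy5 alone. Its spots were flagged at 64-cell and 30% epiboly, and no signal on these 6 arrays was above blanks.

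CGENXEB_456000396_0 was among the brightest members. Its Cy5 spot median was 330, 217, 236, 397, 316 and 305 from 64-cell to shield, all under the blank level. The next arrays gave 2300, 7220 and, for tailbud, 27118. Its loess ratio, from 64-cell to tailbud, was -5.13, -5.14, -4.74, -3.86, -3.50, -3.53, -1.56, -0.62 and 1.59. The probe thus went from the lowest ratio among the members at 64-cell to one above their median at tailbud. The ratio of the rule was 2.19 above that of 90% epiboly and 3.47 above that of 75% epiboly, and no spot was flagged on any of the 9 arrays. Over the 6 earlier arrays the loess ratio rose by a fitted 1.97 ± 0.29 (limma, adjusted p = 0.0082, range over the alternatives 0.0064 to 0.2). In Cy5 alone the fitted change was 2.12. None of the 6 Cy5 signals behind this fit exceeded the blank level, so the change is poorly measured. The pool spot median of the probe was 6228 at 64-cell and 3278 at shield, where the median over all IDs was 966 and 548.

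The other 2 named members, CGENXEB_456002584_0 and CGENXEB_456011738_0, had the largest smaller differences of all and were called falling on the earlier arrays, and both had a flagged spot at tailbud. The Cy5 spot median of CGENXEB_456002584_0 was 2110, 1248, 972, 587, 441 and 301 from 64-cell to shield. The last 3 arrays gave 497, 442 and 402, the last just over the blank level, so the median pixel of the spot was no brighter at tailbud. The spot mean at tailbud was 5532, with an SD over its pixels of 10979. The smaller difference was 4.34 from spot means and 0.08 from spot medians. Its loess ratio fell by a fitted 1.13 ± 0.26 from 64-cell to shield (limma, adjusted p = 0.016, range over the alternatives 0.0012 to 0.097).

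CGENXEB_456011738_0 had Cy5 spot medians of 362, 386, 331, 286, 248 and 188 from 64-cell to shield, then 532, 430 and 495 on the last 3 arrays. At tailbud its pool spot mean was 537 and the mean pool background around it 522, which left a difference of 15 scanner units as the denominator of the ratio. The smaller difference was 3.88 by the rule, 0.22 after normexp and loess and 0.43 from spot medians. Its spot was flagged at 64-cell and on the last 3 arrays. The loess ratio fell by a fitted 1.40 ± 0.23 over the 6 earlier arrays (limma, adjusted p = 0.0083, range over the alternatives 0.0036 to 0.072). None of these 6 signals exceeded the blank level of its array, and in Cy5 alone the fitted change was -0.71. The 2 largest values of the set thus rest on a spot with a wide spread of pixels and on a high local background.

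**Figure D5:**
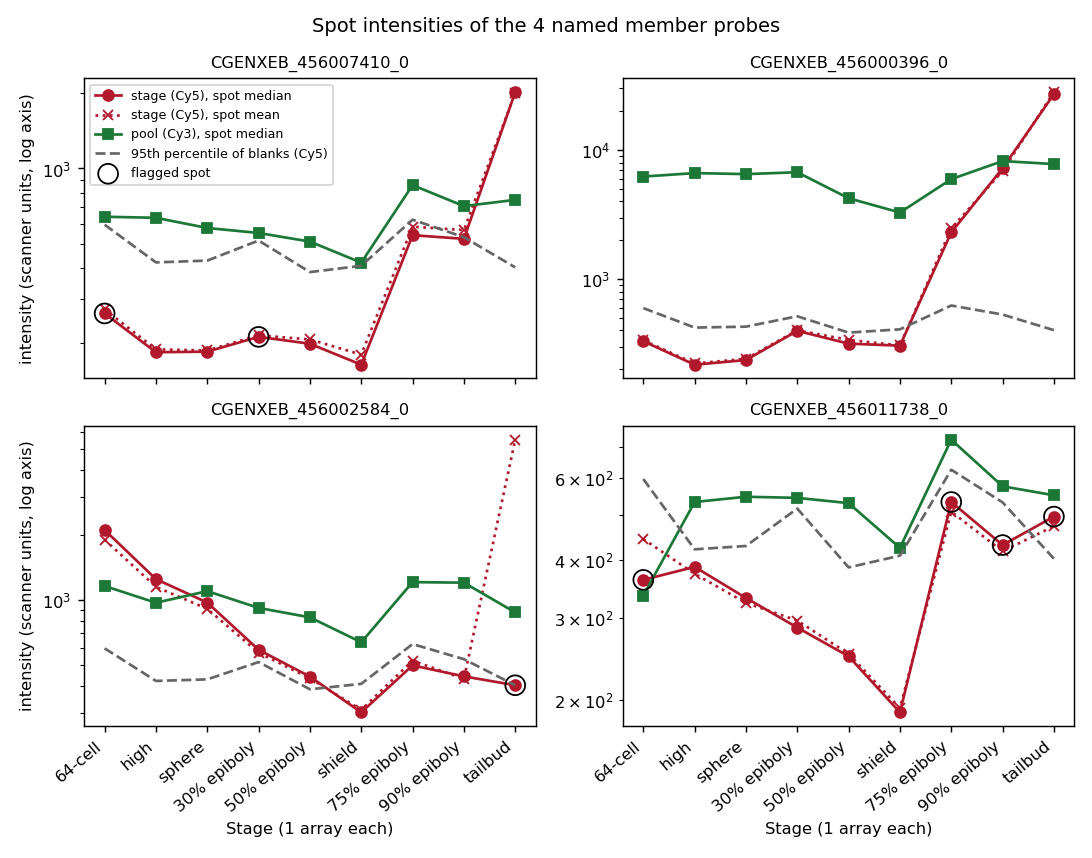
Spot intensity in scanner units (vertical axes, log scale, a different range per panel) of the 4 named members at the 9 stages (horizontal axes), with the Cy5 spot median and mean, the Cy3 spot median, the blank level and rings around flagged spots. In the upper panels spot mean and median lie together at tailbud, while for CGENXEB_456002584_0 the mean is 5532 and the median 402.

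A flagged spot on at least 1 of the last 3 arrays was found for 14 members, and the sources used here do not give the meaning of the flag codes. At tailbud 11 members were flagged (12.1%, against 8.49% of all IDs), at 90% epiboly 5 (5.49%, against 9.38%) and at 75% epiboly 9 (9.89%, against 11.5%). Of the 77 members without such a flag, 18 rose and 2 fell over the 6 earlier arrays, where 19.5% of all tested probes rose and 15.1% fell. When spot medians replaced spot means, 83 of the 91 members still met the limit and 8 had a smaller difference between 0 and 1.

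Position on the slide moved with membership. The 32 print blocks lay in 4 columns holding about equal shares of IDs (24.6% to 25.4%), and these columns held 10, 18, 26 and 37 members. Over the other IDs above blanks at tailbud, the median difference between tailbud and 90% epiboly was -0.06, -0.07, -0.09 and 0.21 in the same columns. With each array centred within these columns, 91 IDs met the rule, 76 of them members, and the columns held 19, 19, 31 and 22. Loess within print blocks gave 64 IDs, 56 of them members, in numbers of 8, 18, 19 and 19. Within blocks, 63 members lay in the last 11 of 22 spot columns, which held 50.5% of the IDs, and 14 lay in column 22, which held 4.54%. The part of the position within a block in the result was not tested.

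Of the 91 members 48 passed the rule as stated, after loess and after loess within print blocks, the 3 scalings named above. Their median loess ratio was -0.95 at 64-cell, -0.93 at high and -0.57 at shield, then 0.06 at 90% epiboly and 1.37 at tailbud, a course like that of all 91. Over the 6 earlier arrays 14 of the 48 rose and 2 fell, where 19.5% of all tested probes rose and 15.1% fell. Both falling members had a flagged spot at tailbud. For CGENXEB_456002584_0, which was among them, the smaller difference from spot medians was 0.08. The subset of 48 was taken after the values were seen.

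The 9 arrays also differed in their image analysis. On the first 6 arrays 1 column of the scanner tables was empty for 9481 to 12272 of 16896 spots and between 237 and 807 spots failed a shape criterion, and on the last 3 arrays both numbers were 0. The step from shield to 75% epiboly, where the loess ratio differed by a median of 0.19 over the members and -0.02 over the other IDs above blanks, crosses this change, and its part in the result was not tested. The comparison of tailbud with 75% and 90% epiboly lies within the last 3 arrays, and the fits over the 6 earlier stages lie within the first 6.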

How the data were processed

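Per the file headers, the deposited scanner tables hold mean and median spot intensity and local background per channel on a linear scale, not normalized; the sources used here do not give the image software's settings. The authors' deposited value table holds log2 values. Set against the scanner tables these were the uncentred log2 ratio of stage over pool, and the table's ID prefix differs by 1 letter. Dye swaps are mentioned in the design text, but all 9 arrays used here had the stage in Cy5, so probe-specific dye bias was not removed from the ratios. For the ratio of the rule, intensities of repeated spots of 1 ID were averaged first.

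The members and all lists were chosen with earlier results of these data known. For the fits, spot means and background medians were corrected by normexp (offset 50) and normalized by loess in limma 3.58.1 under R 4.3.3, with control spots at weight 0. The Cy5 channel alone was also Aquantile normalized between arrays. Probes entered the fits if the spot median stood more than 2 background SD over the local background in Cy5 or Cy3 on 3 or more of the 6 earlier arrays. Slope and contrast were two-sided. The slope's error is the scatter of single arrays of different stages around a line, which measures no variation between clutches.

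The rule for named probes asked for lists of genes by symbol, such as markers of somites and notochord, which could not be matched to IDs. The 4 IDs were instead the 2 members with the largest smaller difference among those unflagged with a pool signal above blanks, and the 2 falling members with the largest one. The slope was tested on simulated data for the 16105 probes: of 50 probes each with a change of 0.5, 1, 2 and 4 on the log2 scale, 0, 9, 30 and 48 were called, and 4 of 15905 unchanged probes. For the contrast of 3 against 3 arrays these numbers were 2, 30, 49 and 50, and 7. Noise was drawn independently per probe. Far fewer probes were changed in the simulation than were called in the data, where the slope called 19.5% rising and 15.1% falling. The adjustment over all probes is therefore stricter in the simulation, and its numbers are not detection rates for the data. With 1 array a stage, the number of arrays limits precision. Alternatives covered the size limit, scaling, background, blank threshold, flags, filters, single arrays and slide position. Tables and figures were made with Python 3.11.15, pandas 2.3.3, numpy 2.4.6 and matplotlib 3.10.9.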

Additional observations from a re-analysis of the deposited data

Results flagged for a closer look

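Control spots entered none of the comparisons, and 3 kinds of them were brighter than the blanks at tailbud. Their smaller difference of the loess ratio, from 75% and 90% epiboly to tailbud, was 0.13 for the 172 spots of CGENZFCTRL_40001_0, 0.00 for the 31 spots called Pooled Control and 0.14 for the 16 polyA spots. The members' median by the same measure was 1.1, but the rule chose them on these 3 arrays, so nothing is read from the gap. The polyA spots had a ratio of 0.67 at 75% epiboly, 0.04 at 90% epiboly and 0.81 at tailbud.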

How the results depend on the processing

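The number of IDs that met the rule was 22 with a limit of 1.5 and 7 with a limit of 2 in place of 1, 60 when the pool signal also had to exceed blanks, 139 against 90% epiboly only and 450 against 75% epiboly only. It was 48 when loess and print-block loess had to pass too, a setting added after the data were seen, as were spot medians, column centring, averaged log ratios and the subsets without flagged members. Under the other alternatives it lay between 62 and 95. Similar totals did not always hold the same IDs, as Cy5 alone gave 78 IDs, of which 47 were members. Rising members by stage order numbered 6 in the authors' value table as deposited (6.59%, against 6.04% of all probes). They numbered 11 with a robust prior and intensity trend (12.1%, against 19.6%) and 14 in Cy5 alone (15.4%, against 16.4%). Among the 48 passing all 3 scalings 14 rose, where 19.5% of all tested probes did. When single arrays were left out 10 to 20 members rose, where 9.84% to 18.5% of all tested probes did. Falling members numbered 2 without flagged members and 2 among those passing all 3 scalings, where 15.1% of all tested probes fell. These were different members, and no falling member met both conditions. Falling members numbered 3 to 5 when single arrays were left out, where 7.18% to 14.3% of all tested probes fell. For the contrast, members higher numbered 6 in the table as deposited (6.59%, against 7.44%) and 14 with the robust prior (15.4%, against 24.5%). There were 5 when 2-fold was also asked (5.49%, against 9.88%) and 13 in Cy5 alone (14.3%, against 19.9%). With single arrays left out 14 to 26 members were higher, where 19.4% to 24% of all tested probes were. Members lower numbered 2 when 2-fold was also asked (2.2%, against 8.57%). They numbered 2 without flagged members and 2 among those passing all 3 scalings, again different members, where 19.2% of all tested probes were lower. With single arrays left out there were 4 to 6, where 15.8% to 19.4% of all tested probes were lower. Median centring changed the 2-fold counts to 2 lower from 64-cell to high, 2 higher from high to sphere, 6 higher and 7 lower from sphere to 30% epiboly, 7 higher from 30% to 50% epiboly and 1 higher from 50% epiboly to shield. With 4-fold in place of 2-fold all these counts were 0. Without flagged members 1 was higher from sphere to 30% epiboly. With the 99th percentile of blanks 17 members were above blanks at 64-cell, 8 at high and 9 at 50% epiboly. With 2 background SD the 6 earlier arrays had 91, 87, 90, 89, 91 and 91 in stage order. For the 2-fold counts and the counts above blanks, no share over all IDs was taken under these changed settings. Nothing is read about the members from them. Except where a setting itself asks for more or takes fewer members, the cause of these changes was not tested. No paired analysis was possible because each stage has 1 array. Signal over blanks limits the ratios of most members before tailbud.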
